A study of Mus musculus with 3 samples.

Results

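The cells described here are the *Krt10*-high, *Lor*-low barcodes of mouse dorsal skin, 298 of the 5760 barcodes kept as cells, or 5.17%. A barcode of a library was kept when it had at least 200 detected genes and at most 20% of its counts from mitochondrial genes. It was a member when *Krt10* made up at least 40000 CPM of the barcode, *Lor* less than 3000 CPM and *Krt14* less than 500 CPM. CPM is the count of a gene divided by the total of the barcode or of a pool of barcodes, scaled to a common size. The levels of *Krt10*, *Lor* and *Krt14* in the members are therefore set by this rule, and every comparison of members with other barcodes is a description without a test.

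The outer epidermis renews itself from a basal layer of dividing keratinocytes that make the keratins Krt5 and Krt14. Cells that leave this layer switch to Krt1 and Krt10 in the spinous layer, where desmosomes, the junctions that hold neighbouring keratinocytes together, are abundant. In the granular layer above, cells make loricrin (Lor), filaggrin and other proteins of the cornified envelope, the cross-linked shell of the dead cells at the surface. The vitamin D receptor, encoded by *Vdr*, is a nuclear receptor of keratinocytes that is required for hair follicle cycling.

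The study compared dorsal skin of *Vdr* cKO mice with that of control mice at postnatal day 18. There were 2 libraries of control mice (*Vdr* flox/flox, without Cre) and 1 library of *Vdr* cKO mice (*Vdr* flox/flox; Krt14cre), in which Cre is driven by the *Krt14* promoter, so that exon 3 of *Vdr* is deleted in *Krt14*-expressing keratinocytes and the cells that arise from them. The study's methods state that skin of 3 male mice was pooled for each library, so the spread between mice cannot be measured, and that cells were scraped from trypsin-treated skin and captured in droplets. Control 1 had 2788 barcodes with 19943755 counts, control 2 had 2460 with 29241653 and the *Vdr* cKO library had 2782 with 31080936. Of these barcodes, 1480, 1658 and 2622 were kept.

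Before the results, 3 properties of the libraries have to be stated. Groups of 3 values below follow the order control 1, control 2, library labelled *Vdr* cKO. The pooled level of *Vdr* was not reduced under the cKO label. Pooled over the members its level was 26.9 CPM with a 95% exact Poisson interval of 22.4 to 32.0, then 12.2 CPM (9.74 to 15.0) and 49.8 CPM (39.2 to 62.5), against 45.3, 43.6 and 82.4 CPM in the other kept barcodes. Counts per gene do not tell transcripts with exon 3 from those without it. The pooled level was thus highest in the library labelled *Vdr* cKO, which is named in this way from here on. This order does not hold in every count. With each gene counted once per barcode the log2 ratio of *Vdr* to the control mean was -0.11 in the members, with the mean of single-barcode CPM it was 0.31, and 8.74%, 11.9% and 11.5% of the members had a count. *Xist*, the transcript of the inactive X chromosome of female cells, was at 0 in the members of both controls and at 71.7 CPM (58.9 to 86.6) in those of the library labelled *Vdr* cKO, where 18 of 52 members had a count. The Y-linked gene *Eif2s3y* was at 105, 108 and 30.6 CPM. The library labelled *Vdr* cKO thus held transcripts of both sexes although the methods name male mice, and the sex of the mice and the genotype cannot be told apart. Of the kept barcodes, 27, 28 and 20 had a sequence that also occurred in another library, and 6, 1 and 0 of these were members. Leaving them out gave member shares of 6.68%, 8.71% and 2.00%.

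The rule took barcodes from a continuous range of *Krt10* and *Lor*, not from a separate group. The members nearest to the *Krt10* limit had 40363, 40103 and 40996 CPM, and the nearest barcodes that missed only this limit had 39901, 39926 and 39783 CPM. For *Lor* the values on the inner side were 2969, 2797 and 2871 CPM and those on the outer side 3108, 3262 and 3031 CPM. For *Krt14* they were 421, 467 and 471 CPM inside and 508, 503 and 501 CPM outside. Within 10% of the *Krt10* limit there were 61 members and 87 barcodes that missed only this limit, so that the *Krt10* limit ran through a dense range. Within 10% of the *Lor* limit there were 8 and 8.

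**Figure D1:**
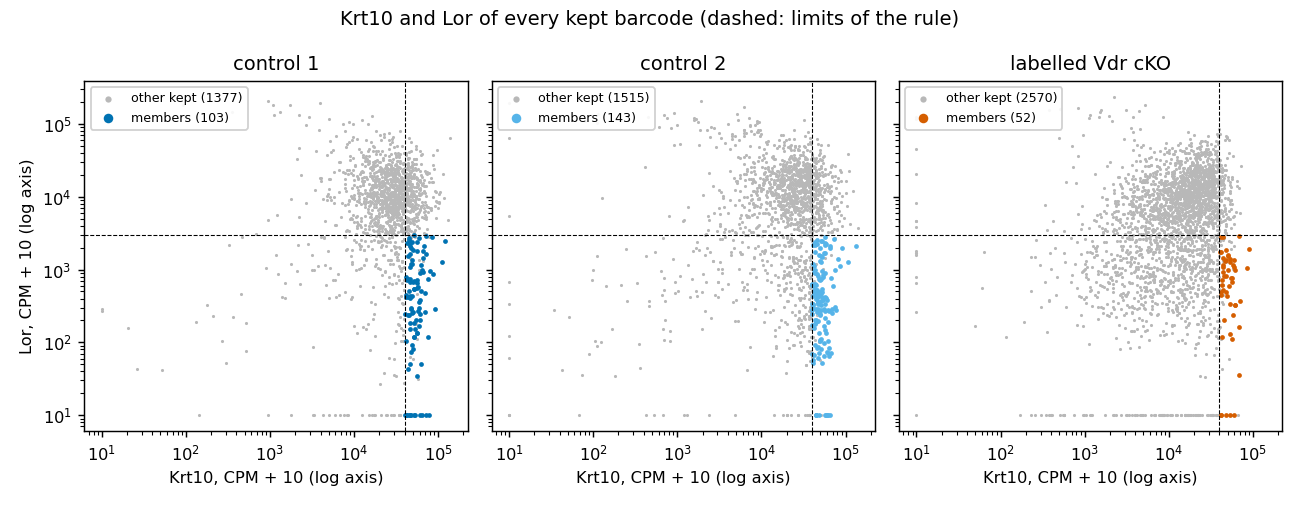
*Krt10* against *Lor* of every kept barcode, in CPM with 10 added, on log axes, 1 panel for each library. Dashed lines are the *Krt10* and *Lor* limits, coloured points are the 103, 143 and 52 members and grey points the other kept barcodes. The grey points run up to the members on both sides without a gap.

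The regions before the start of *Krt10*, of *Lor* and of *Krt77*, a suprabasal epidermal keratin gene that was high in the same barcodes, are shown because the first and second of these genes define the members and the third was measured apart from the rule. Each is the 250 bases before the gene's start in the RefSeq annotation of GRCm38.p6, read 5′ to 3′ on the gene's strand, which is the minus strand for all 3. Capitals mark a TATA box (TATAAA) or an AP-1 site (TGAGTCA) on either strand. The *Krt10* region is at chr11:99389365-99389614, the *Krt77* region at chr15:101869706-101869955 and the *Lor* region at chr3:92083143-92083392.
Krt10: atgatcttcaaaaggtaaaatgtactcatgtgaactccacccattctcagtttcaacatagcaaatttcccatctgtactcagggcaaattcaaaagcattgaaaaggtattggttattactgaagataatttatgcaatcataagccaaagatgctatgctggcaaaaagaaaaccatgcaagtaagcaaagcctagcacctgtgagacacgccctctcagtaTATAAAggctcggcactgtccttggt
Krt77: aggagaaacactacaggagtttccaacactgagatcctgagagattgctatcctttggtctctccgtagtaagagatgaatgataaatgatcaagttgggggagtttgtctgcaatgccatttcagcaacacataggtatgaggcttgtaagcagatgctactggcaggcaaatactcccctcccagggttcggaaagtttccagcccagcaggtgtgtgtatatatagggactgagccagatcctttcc
Lor: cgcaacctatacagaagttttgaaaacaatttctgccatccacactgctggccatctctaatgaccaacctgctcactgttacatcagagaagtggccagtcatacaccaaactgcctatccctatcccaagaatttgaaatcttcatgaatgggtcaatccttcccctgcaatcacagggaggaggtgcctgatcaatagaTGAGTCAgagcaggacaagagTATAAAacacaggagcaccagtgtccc
TATAAA began 26 bases before the start of *Krt10* and 27 bases before that of *Lor*, and TGAGTCA 48 bases before that of *Lor*. Neither motif was found before *Krt77*. Among the 32851 RefSeq promoters, 12.4% hold TATAAA and 4.46% hold TGAGTCA in the same window, and a match is a description of letters, not of a bound site. *Krt1* is named without a sequence.

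Members made up a larger share of the kept cells of both controls than of the library labelled *Vdr* cKO. They were 103 of 1480 in control 1, or 6.96% (95% Clopper-Pearson interval 5.72% to 8.38%), 143 of 1658 in control 2, or 8.62% (7.32% to 10.1%), and 52 of 2622 in the library labelled *Vdr* cKO, or 1.98% (1.48% to 2.59%). The mean of the controls was 7.79% ± 1.18 (SD, n = 2 libraries), 3.93 times the share in the other library. This ratio holds for the kept barcodes only, which were unequal parts of the libraries, at 1480 of 2788, 1658 of 2460 and 2622 of 2782. Out of all these barcodes the members were 103 of 2788, 143 of 2460 and 52 of 2782. The intervals of the controls overlapped each other and not that of the library labelled *Vdr* cKO. These limits reflect counting error only. PCR copies of 1 molecule would make those of pooled counts too narrow. With 1 library of *Vdr* cKO mice and 2 control libraries, no test between genotypes was made. A smaller share under the cKO label was not particular to the members. Barcodes that missed only the *Lor* limit were 199 of 1480, 155 of 1658 and 60 of 2622. The median *Krt10* level of the other kept barcodes was 27414, 24123 and 14469 CPM. Its part in the shares was not tested.

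The members were deeper than the other barcodes of their libraries. Their median count was 21278, 29612 and 18544.5, against 4052, 3991 and 3960 in the other kept barcodes. The members therefore held 25.1%, 24.6% and 4.86% of the counts of the kept barcodes. The 17, 17 and 25 barcodes that missed only the *Krt14* limit had medians of 4722, 27926 and 12389 counts, and were thus deep as well in control 2 and under the cKO label. The share of members was larger among deep barcodes. Among barcodes with 2000 to under 4000 counts it was 2.62%, 1.53% and 0.247%, and among those with 32000 or more it was 34.0%, 27.0% and 6.06%. The library labelled *Vdr* cKO was below both controls in each of 6 depth ranges, as it was among all barcodes of at least 8000 counts, a limit chosen after seeing the data, with 5.35% against 24.3% and 20.1%. When every barcode was first thinned at random to 1000 counts, the rule chose 7.44%, 9.33% and 2.11% of the barcodes, and 83 of 109, 113 of 149 and 38 of 54 of those were also members at full depth.

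**Figure D2:**
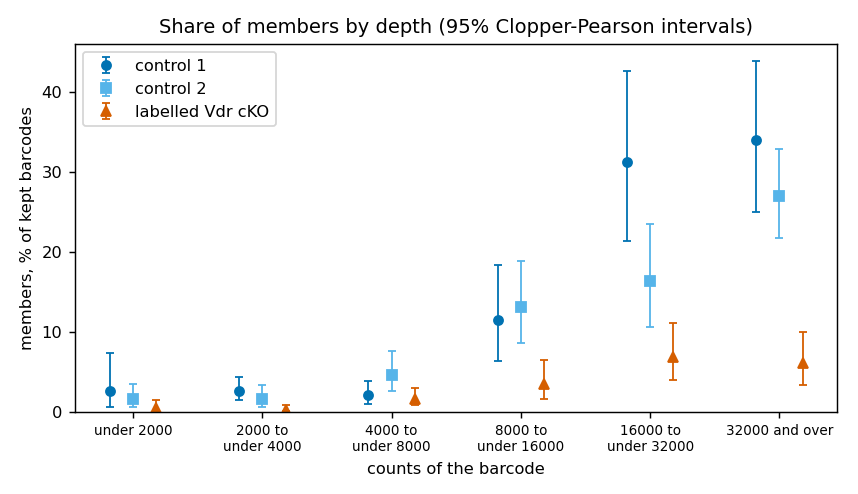
Share of members among kept barcodes (vertical axis, percent) in 6 ranges of the barcode's counts (horizontal axis), with 95% Clopper-Pearson intervals, for the 3 libraries. From 8000 counts up, the shares of the controls lie between 11.4% and 34.0% and those of the library labelled *Vdr* cKO between 3.45% and 6.88%.

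Members also held more kinds of transcripts at equal depth. Thinned to 1000 counts, a member had a median of 375, 453.5 and 519.5 detected genes, against 263, 300 and 391 in the other kept barcodes. The ratios were 1.43, 1.51 and 1.33. Barcodes that missed only the *Lor* limit had 252, 278 and 463.5 genes, near the members only in the library labelled *Vdr* cKO, where at 2000 counts the medians were 776.5 and 766 genes. At 1000 counts, 0, 1 and 0 members and 14, 60 and 60 other barcodes were too shallow to be thinned. Without thinning the medians were 888, 1360 and 1632 genes in the members and 370, 476 and 682 in the others. Mitochondrial counts made up a median of 0.823%, 0.864% and 0.699% of a member, below the 2.37%, 1.75% and 1.78% of the other kept barcodes. Doublets were not called or removed, and their part in the higher numbers of counts and genes was not tested.

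Among the given markers of these cells, the keratins and the globins behaved differently. *Krt10*, at chr11:99385254-99389364 of GRCm38, encodes the acidic partner of the suprabasal keratin pair. Pooled over the members it had 53569, 50600 and 51631 CPM, against 29030, 27193 and 22762 CPM in the other kept barcodes. Over single members the medians were 51175, 49806 and 50425 CPM, above the limit of the rule. *Krt10* was found in 98.0%, 95.9% and 96.9% of the other kept barcodes thinned to 1000 counts. *Krt1*, at chr15:101845426-101850794, encodes the basic partner of Krt10. Its pooled level was 3140, 2026 and 1855 CPM in the members and 2000, 2050 and 1469 CPM in the other barcodes. The pooled level of *Krt1* was thus not higher in the members of control 2, and its log2 ratios of members to the others were 0.65, -0.02 and 0.33. All log2 ratios here were taken with 10 CPM added to both levels. Over single members *Krt1* ran from 0 to 60469 CPM in control 1, from 0 to 29719 CPM in control 2 and from 0 to 11642 CPM under the cKO label, with medians of 1822, 1294 and 1081 CPM against 766, 779 and 542 CPM in the other barcodes. With the mean of single-barcode CPM in place of the pool, the log2 ratios of *Krt1* were 0.78, 0.25 and 0.69. At 1000 counts *Krt1* was found in 68.9%, 60.6% and 59.6% of the members and in 50.8%, 51.4% and 45.9% of the others, and the intervals of these shares overlapped in control 2 and in the library labelled *Vdr* cKO.

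*Hbb-bs* and *Hba-a2*, which encode the beta and alpha chains of haemoglobin in red blood cells, were found in few members. *Hbb-bs* had a count in 4, 6 and 0 members, and *Hba-a2* in 2, 11 and 0. *Hba-a1*, a further alpha chain gene, had a count in 24 of 103, 49 of 143 and 25 of 52 members and in 83 of 1377, 182 of 1515 and 305 of 2570 of the shallower others. At 1000 counts it was found in 2 of 103, 14 of 142 and 2 of 52 members and in 49 of 1363, 56 of 1455 and 92 of 2510 of the others. These shares were 1.94%, 9.86% and 3.85% of the members, and in control 2 their interval lay above that of the others. The 4 globin genes *Hba-a1*, *Hba-a2*, *Hbb-bs* and *Hbb-bt* together had 49.1, 1568 and 117 CPM in the members and 122, 103 and 59.8 CPM in the other barcodes. Globin was by far highest in control 2, and there 2 barcodes, with 8058 and 2470 globin counts, held 95.1% of the 11069 globin counts of the 143 members. Leaving them out, which was decided once the values were known, the members of control 2 had 78.3 CPM, and the log2 ratio turned from 3.81 to -0.35. Of the red blood cell genes that are not globins, *Alas2*, which starts haem synthesis, had 1.98 CPM in the members of control 2 and 0 in the members of the other libraries. *Slc4a1*, which encodes a red cell membrane protein, was at 0 in the members of all 3 libraries. Reads of *Hba-a1* and *Hba-a2* cannot be told apart with certainty, since the coding sequences of these genes are nearly identical.

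**Figure D3:**
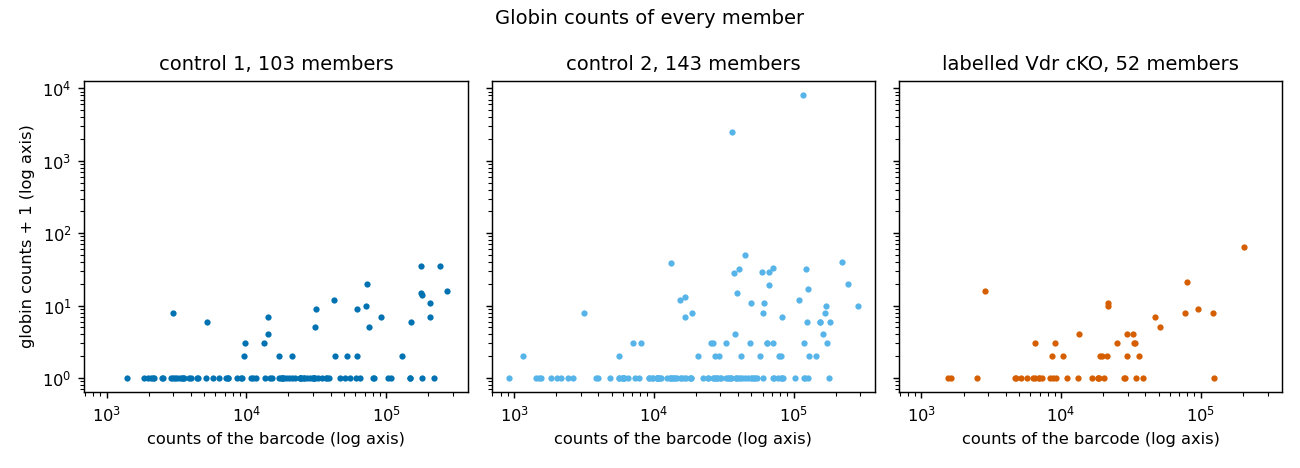
Counts of the 4 globin genes with 1 added (vertical, log axis) against all counts of the barcode (horizontal, log axis) for every member, 1 panel for each library. The 2 globin-rich members stand apart in control 2, at 8058 and 2470 globin counts. The next member of that library has 49.

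The label of spinous keratinocytes was checked against 11 spinous genes. Of the 5765 genes measured in all 3 libraries at a mean of at least 20 CPM and under at least 20 kept barcodes of each, 1 was over 2-fold higher in the members than in the other kept barcodes in all libraries, or 0.0173%, and 178 were over 2-fold lower, or 3.09%. None of the 11 spinous genes was over 2-fold higher in all 3. Their median log2 ratio was 0.50, 0.46 and 0.43, where that of all measured genes was -0.04, -0.03 and -0.10. *Krt10*, whose level the rule sets, is 1 of the 11, and the median of the other 10 was 0.43, 0.30 and 0.39. The median spinous gene was thus above the median of all genes in every library and by less than 2-fold over the other barcodes. With no spinous gene over 2-fold higher in every library and the globins as above, the members are called here by their rule and not as a cell type.

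Among the spinous genes, *Krt77* had 26520, 25578 and 22996 CPM in the members and 15435, 14481 and 11424 CPM in the other barcodes, with log2 ratios of 0.78, 0.82 and 1.01. Each member had a count of it. *Dsg1a*, a desmosomal cadherin gene of the upper epidermis, had 2781, 3130 and 1490 CPM in the members and 1346, 1561 and 850 CPM in the others. The members were higher in each library, at log2 ratios of 1.04, 1.00 and 0.80, and *Dsg1a* was found in 62.1%, 82.4% and 67.3% of members against 40.1%, 49.0% and 36.4% of the others at 1000 counts. The median depths of the groups before thinning were as given above. Counts of *Dsg1a* and its close copy *Dsg1b* may be shared. *Dsc1*, the desmocollin gene of differentiating keratinocytes, differed between the controls, at 262, 639 and 298 CPM in the members against 202, 253 and 133 CPM. *Krtdap*, *Sbsn* and *Dmkn*, which lie side by side and encode secreted proteins of suprabasal cells, were within 2-fold in every library. *Krtdap* had 14717, 24745 and 17587 CPM in the members and 17663, 29398 and 16891 CPM in the others, a log2 ratio of -0.26, -0.25 and 0.06.

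Of 11 desmosome genes measured, none was over 2-fold apart in all libraries, and the median log2 ratios were 0.50, 0.38 and 0.64. *Dsp*, which encodes desmoplakin, had 6393, 6540 and 3818 CPM against 4514, 4714 and 3269 CPM. *Perp*, which encodes a membrane protein of desmosomes, had 4795, 4754 and 4986 CPM against 3977, 4130 and 4063 CPM. Both were moderately higher in the members of every library. The other 5 genes of the list of 16, among them *Pkp2* of heart desmosomes, were too low to be compared, and *Pkp2* was at 0 in all members.

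Genes of the last steps of differentiation were lower in the members. Of 7 late cornified envelope genes measured, 7 were over 2-fold lower in the pools of all libraries, with median log2 ratios of -4.50, -3.86 and -2.60. Of all measured genes 3.09% were over 2-fold lower in all libraries. With the mean of single-barcode CPM the log2 ratios of *Lce1c* were -0.31, -3.52 and -3.45, so it was then not over 2-fold lower in control 1. Those of *Lce1m* were then -2.89, -4.65 and -3.74, and those of *Lce1a2* -2.27, -5.55 and -4.01. *Lce1m*, of a family whose proteins are built into the cornified envelope late, had 66.1, 35.6 and 84.4 CPM in the members and 4029, 2885 and 1890 CPM in the others. *Crct1*, of the same gene cluster on chromosome 3, had 59.9, 51.4 and 107 CPM against 3255, 2648 and 2018 CPM. The members of all 3 libraries were far below the other barcodes for both genes. The *Lce1* genes resemble each other closely, so their single values are less certain than their sum, which was 153, 60.3 and 123 CPM over the list in the members and 7315, 4367 and 2742 CPM in the other kept barcodes. The barcodes that missed only the *Krt14* limit were low as well, at 69.1, 57.6 and 236 CPM. So were those that missed only the *Krt10* limit, at 470, 262 and 327 CPM. Barcodes that missed only the *Lor* limit had 3651, 650 and 1799 CPM. Against these, 2 of the 7 genes were over 2-fold lower in all libraries, where 0.815% of all genes were. The median log2 ratios were then -1.80, -1.81 and -0.40.

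The granular genes were mixed. Of 12 measured, 3 were over 2-fold lower in all libraries, namely *Lor* itself, *Cnfn* and *Asprv1*, where 3.09% of all measured genes were. *Cnfn*, which encodes cornifelin, had 324, 370 and 175 CPM against 1057, 1162 and 484 CPM. *Flg2*, a relative of filaggrin, was lower in the controls, at 617 against 2270 CPM and 777 against 2672 CPM, and less so in the library labelled *Vdr* cKO, at 729 against 1382 CPM. In contrast, *Ivl*, which encodes the early envelope protein involucrin, had 843, 1197 and 967 CPM in the members and 731, 723 and 525 CPM in the others. *Scel*, which encodes sciellin, had 873, 517 and 345 CPM against 395, 396 and 294 CPM. The members were above the others for both of these genes in every library, and by over 2-fold only for *Scel* in control 1.

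**Figure D4:**
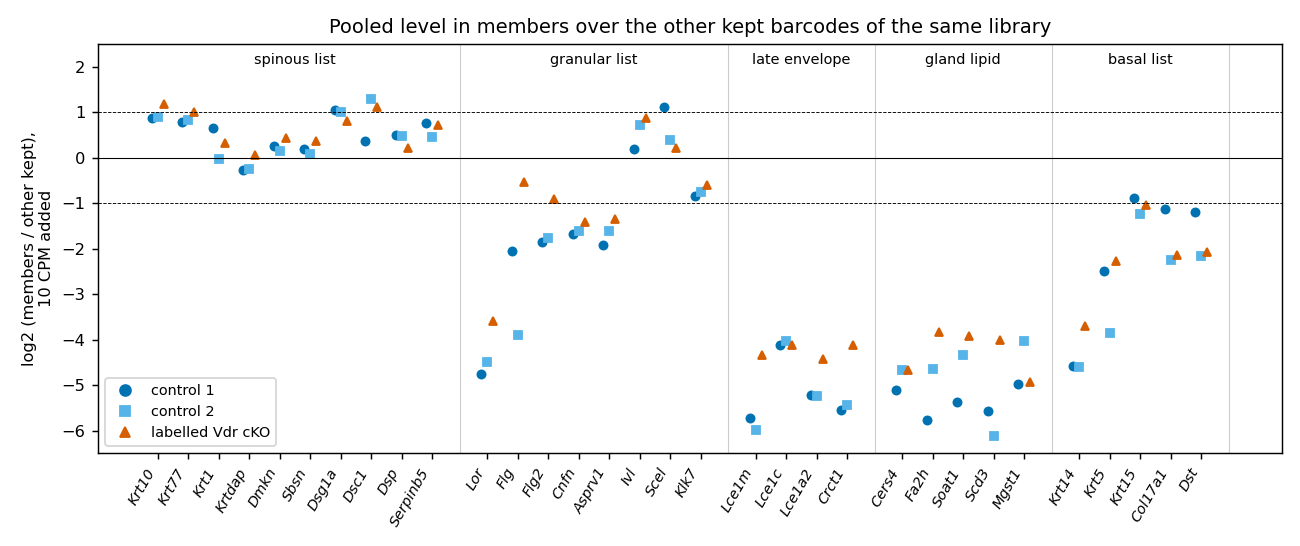
Log2 ratio of the pooled level in members to that in the other kept barcodes of the same library (vertical axis, 10 CPM added) for genes grouped by list, 1 symbol for each library. Dashed lines are 2-fold. The spinous genes drawn lie between -0.26 and 1.30. The late envelope and gland lipid genes drawn lie at or below -3.84. They were drawn from the 12 lowest genes of this same comparison, and *Crct1*, *Cers4* and *Fa2h* are not in the gene lists. Gland genes such as *Scd1* and *Fasn* are not drawn and were less far below the others.

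Genes of the sebaceous gland were lower in the members than in the other kept barcodes. Of 11 sebaceous genes measured, 10 were over 2-fold lower in all libraries, where 3.09% of all measured genes were. Their median log2 ratios were -3.40, -3.26 and -2.61. *Scd1*, a desaturase of fatty acids and the most abundant of them in the members, had 209, 188 and 165 CPM in the members and 2312, 1061 and 808 CPM in the others. The list summed to 314, 251 and 196 CPM in the members and 5403, 3238 and 1997 CPM in the others. Barcodes missing 1 limit were below the others too, at 1165, 392 and 435 CPM for *Lor* and 657, 187 and 1583 CPM for *Krt14*. Those missing only the *Krt10* limit had 1422, 939 and 1149 CPM. Against the *Lor*-positive barcodes 0 of the 11 genes were over 2-fold lower in all libraries. *Soat1*, which esterifies cholesterol, had 1.48, 1.84 and 0.664 CPM against 465, 228 and 152 CPM. The gene not lower by 2-fold in all libraries was *Fasn*, the fatty acid synthase gene, which was at 45.5 against 64.0 CPM in control 2. Ordered by the library with the smallest change, the 12 lowest of all genes were *Cers4*, *Lce1a2*, *Lce1m*, *Cyp2g1*, *Crct1*, *Mgst1*, *Lce1c*, *Scd3*, *Soat1*, *Mgll*, *Fa2h* and *Krt14*. *Cers4*, a ceramide synthase gene, had 4.66, 1.13 and 1.33 CPM in the members and 494, 272 and 278 CPM in the others. *Fa2h*, which encodes a hydroxylase of fatty acids, had 3.81, 2.12 and 5.98 CPM against 741, 292 and 219 CPM. The members of all 3 libraries were thus close to 0 for both of these genes.

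The single gene over 2-fold higher in the members of all 3 libraries was *Rab11fip4*, which encodes an effector of the Rab11 GTPase in vesicle transport. Its pooled level was 229 CPM (215 to 243), 165 CPM (155 to 174) and 165 CPM (145 to 187) in the members and 54.3, 63.8 and 67.5 CPM in the others. At 1000 counts it was found in 7 of 103, 17 of 142 and 6 of 52 members and in 2.86%, 2.47% and 2.83% of the others. With the mean of single-barcode CPM the log2 ratios of *Rab11fip4* were 1.20, 0.70 and 1.42, and it was then not over 2-fold higher in control 2. The intervals of the shares at 1000 counts overlapped in control 1 and not in control 2 or the library labelled *Vdr* cKO. The count of higher genes rests on all 3 libraries, and it was 11 without control 1, 36 without control 2 and 24 without the library labelled *Vdr* cKO, while the lower genes were 265, 313 and 291.

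Basal genes were low against the other kept barcodes, as the *Krt14* limit partly sets. *Krt5*, which encodes the partner of Krt14, had 143, 28.8 and 483 CPM in the members and 858, 549 and 2359 CPM in the others. It was found in 10.7%, 2.11% and 23.1% of the members at 1000 counts, against 23.4%, 18.6% and 22.2% of the *Lor*-positive barcodes that met the other limits. The median depths before thinning were 21278, 29612 and 18544.5 counts in the members and 3765, 2999 and 9921 counts in the *Lor*-positive barcodes. *Krt15*, another basal keratin gene, was the most abundant of the list, with 1790, 1044 and 3824 CPM in the members and 3331, 2475 and 7843 CPM in the others. The list of 10 basal genes had *Krt5*, *Krt14*, *Col17a1* and *Dst* over 2-fold lower in all libraries, 4 of the 8 measured. Of all measured genes 3.09% were over 2-fold lower in all libraries. Against the *Lor*-positive barcodes 0 of the 8 were. The list summed to 2384, 1274 and 4926 CPM in the members and 2510, 1965 and 3477 CPM in the *Lor*-positive barcodes.

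Marker genes of other cell types were at or near 0 in the members for some types and not for others. The defining genes of smooth muscle and of endothelial cells summed to at most 0.142 and 1.13 CPM in the members of any library, those of fibroblasts to at most 7.31 CPM and those of melanocytes to at most 10.8 CPM. Only 2 of the 6 smooth muscle genes and 7 of the 9 fibroblast genes were listed in the matrices. Genes of the inner root sheath, the follicle layer that guides the hair, were at 0 and 1.27 CPM in the members of the controls and at 81.0 CPM in those of the library labelled *Vdr* cKO, where 2 of 10 genes were at 0 and *Krt25* was the most abundant, at 31.2 CPM. The list summed to 0.994, 7.44 and 254 CPM in the other kept barcodes. Of the *Krt25* counts 95.7% were in 1 of the 52 members. T cell genes summed to 158, 94.3 and 211 CPM in the members and 163, 105 and 214 CPM in the others, nearly all of it *Trbc2*, which was at 157, 90.4 and 205 CPM in the members. Antigen-presenting cell genes summed to 788, 987 and 1053 CPM, against 1058, 1071 and 1173 CPM, and were led by *Cst3*, which many cell types make. Upper follicle genes, led by *Cst6*, summed to 793, 1704 and 1540 CPM in the members and 1759, 3215 and 5265 CPM in the others. Companion layer genes, led by *Krt17*, summed to 315, 170 and 460 CPM against 812, 1022 and 2457 CPM. Bulge genes summed to 1897, 1099 and 3915 CPM against 3443, 2533 and 8225 CPM, nearly all of it *Krt15*. The part of these transcripts in the results was not tested.

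A closer comparison set the members against the barcodes that met the *Krt10* and *Krt14* limits and missed only the *Lor* limit, 199, 155 and 60 barcodes. Of the 5765 genes, 47 were over 2-fold higher in the members in all libraries, or 0.815%, and 47 were over 2-fold lower, or 0.815%. The lower genes were led by *Lor*, *Lce1m* and *Crct1*. *Smpd3*, which encodes a neutral sphingomyelinase, had 8.68, 0.567 and 4.65 CPM in the members and 95.2, 108 and 66.8 CPM in the *Lor*-positive barcodes. *Ctsl*, which encodes the lysosomal protease cathepsin L, had 2.75, 19.5 and 3.32 CPM against 154, 118 and 361 CPM. *Serpina12*, which encodes the serine protease inhibitor vaspin, had 257, 190 and 29.2 CPM against 1348, 1313 and 968 CPM. These genes were low in the members of all 3 libraries, and so were *Ak1*, *Fam110a*, *Rnf227*, *Wfdc21*, *Rgs10* and *Il1f9*.

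The 12 highest genes in this comparison were, in order, *Rpp25l*, *Bcar1*, *Plpp1*, *Surf4*, *Twistnb*, *Smc4*, *Gnl1*, *Bloc1s2*, *Hoxb7*, *Dusp7*, *Hagh* and *Irx2*. *Rpp25l* had 156, 32.7 and 59.8 CPM in the members against 34.2, 0.940 and 3.52 CPM. *Hoxb7*, a homeobox gene of body position, had 36.2, 37.0 and 65.1 CPM against 0.412, 9.40 and 7.03 CPM. *Irx2*, a further homeobox gene, had 34.7, 39.4 and 50.5 CPM against 2.47, 11.3 and 5.63 CPM. *Hoxb7* had a count in 4, 13 and 5 members, so these ratios rest on few barcodes. Against all other kept barcodes, with rule and mitochondrial genes left out of the total, the log2 ratios of *Rpp25l* were 1.09, -0.26 and 0.30. Those of *Irx2* were then -0.21, 0.23 and -0.68, and those of *Hoxb7* 1.01, 0.91 and 1.33. Apart from *Lor*, which the rule sets, 3 of 11 granular genes were over 2-fold lower against the *Lor*-positive barcodes, namely *Cnfn*, *Flg2* and *Hrnr*. Apart from *Krt10*, none of 10 spinous genes was, and their median log2 ratio was 0.10, 0.03 and 0.01, where that of all genes was 0.13, 0.15 and 0.09. Members and *Lor*-positive barcodes thus did not differ by 2-fold in any of these spinous genes in all libraries, at the unequal depths given above.

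Of 18 transcription factors of epidermal differentiation measured, 1 was over 2-fold lower in the members of all 3 libraries and none was over 2-fold higher. Of all measured genes 3.09% were lower in this way, so 1 lower gene of 18 is not read as a property of the list. The 1 lower gene was *Prdm1*, which encodes Blimp1, a transcriptional repressor that acts in terminal differentiation. It had 17.8, 10.8 and 0 CPM in the members and 106, 109 and 54.4 CPM in the others. *Klf4*, the most abundant of the list and a factor of barrier formation, had 2212, 1721 and 1167 CPM against 1784, 1587 and 897 CPM. *Gata3*, a factor of the epidermis and the inner root sheath, had 845, 744 and 935 CPM in the members and 577, 550 and 734 CPM in the others, a log2 ratio of 0.54, 0.43 and 0.34. In the Notch pathway, which drives the switch from basal to spinous cells, none of 11 genes was over 2-fold apart in all libraries, and *Adam10*, which cleaves the receptors at the cell surface, had 58.2, 58.4 and 51.8 CPM against 32.5, 87.1 and 67.9 CPM.

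Within the members, the library labelled *Vdr* cKO was compared with both controls. Of 3198 genes with a mean of at least 50 CPM in the members, 133 were over 2-fold above both controls, or 4.16%, and 140 were over 2-fold below both, or 4.38%. The controls themselves were over 2-fold apart for 404 of these genes, or 12.6%. In the other kept barcodes the same 3198 genes gave 28 above, or 0.876%, 20 below, or 0.625%, and 53 with the controls apart, or 1.66%. Of the 133 genes above in the members, 13 were also above in the others, which is 9.77% of the first list and 46.4% of the second. Of the 140 below, 4 were also below in the others, which is 2.86% and 20.0%. The pools of members were much smaller, with 4721741, 7059575 and 1505389 counts, and the deepest member alone held 5.81%, 4.08% and 13.5% of them. With each gene counted once per barcode, 24 of the 3198 genes were above both controls, or 0.750%. With the minimum level applied to these counts instead, which changes the genes tested, 98 were above both controls and 123 below both. Counted once per barcode, a gene already found in most control members can hardly rise, so a ratio under 2-fold in that count does not show that its level was alike.

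The immediate early genes, which are induced within minutes by growth factors and stress, including tissue dissociation, were the list with the most genes above both controls. Of 14 measured, 10 were over 2-fold above, namely *Jun*, *Fos*, *Fosb*, *Junb*, *Egr1*, *Ier2*, *Atf3*, *Dusp1*, *Zfp36* and *Btg2*, and none was below. Their median log2 ratio to the control mean was 1.59, where that of all genes was 0.00. *Jun*, which encodes a subunit of the transcription factor AP-1, had 182 CPM (170 to 195), 133 CPM (124 to 142) and 1505 CPM (1444 to 1569) in the members. *Fos*, which encodes the partner of Jun, had 376 CPM (358 to 394), 359 CPM (345 to 373) and 1425 CPM (1365 to 1486). The controls were close to each other and the library labelled *Vdr* cKO was far above both. *Atf3*, a stress-induced factor, had 4.66, 11.6 and 163 CPM, and a count in 1, 8 and 17 members.

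Of the 10 genes above both controls in the members, 5 were also above both in the other kept barcodes, namely *Jun*, *Fos*, *Fosb*, *Junb* and *Atf3*. *Jun* had 264, 293 and 1102 CPM in the other kept barcodes and *Fos* 440, 358 and 924 CPM. The median log2 ratio of the 14 genes there was 0.80. Thinned to 1000 counts, 6.80%, 10.6% and 48.1% of the members had a count of *Jun*, against 6.82%, 10.1% and 40.4% of the others. For *Fos* the shares were 16.5%, 24.6% and 61.5% of the members and 12.8%, 14.4% and 35.9% of the others. No kept population is known to lack these transcripts, so the background from free RNA was not measured for these shares. Counting each gene once per barcode left 3 of the 14 above both controls, at a median log2 ratio of 0.35. This count is capped for genes such as *Fos*, found at full depth in 48.5%, 60.1% and 82.7% of the members. It is less so for *Junb*, found in 32.0%, 40.6% and 57.7%, which was not above both controls either, at 0.36. The mean of single-barcode CPM left 7 above both controls and put 1 below both, and 7.29% of all tested genes were then above. Whether the handling of the tissue differed between libraries was not tested.

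**Figure D5:**
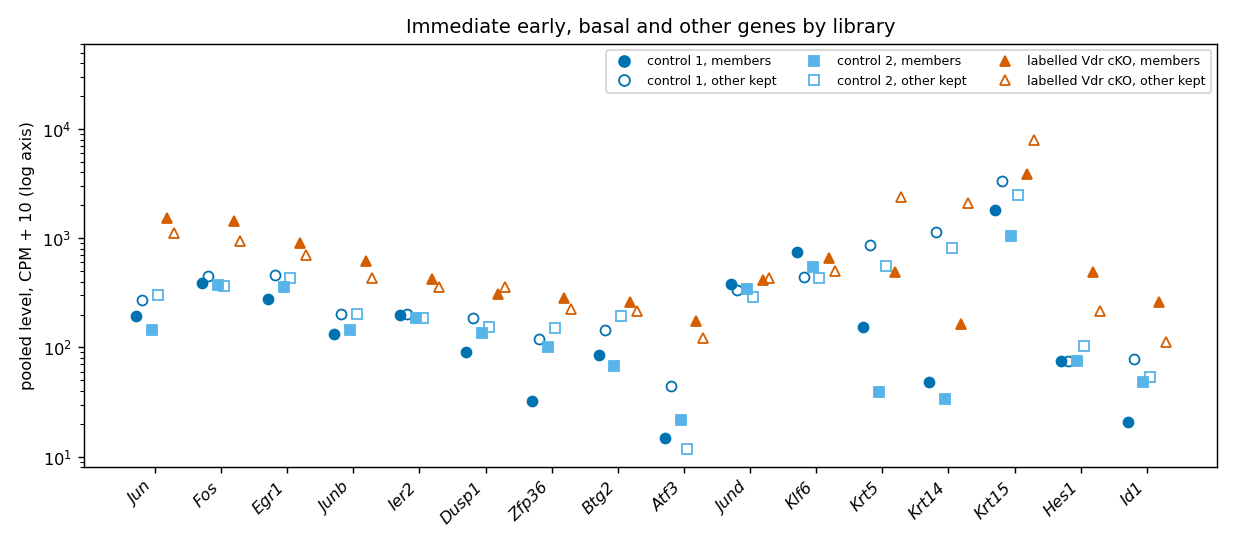
Pooled level in CPM with 10 added (vertical, log axis) of immediate early, basal keratin and other genes in the members (filled symbols) and the other kept barcodes (open symbols) of the 3 libraries. The filled triangles of *Jun*, *Fos* and *Hes1* lie above all control symbols. For *Krt5* and *Krt14* every filled symbol lies below the open symbol of its own library.

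The basal genes *Krt5* and *Krt15* were above both controls, 2 of the 4 measured beside *Krt14*. *Krt14* was above them too, but the rule limits its level in the members. Without the deepest member of each library *Krt15* was no longer above both controls, at a log2 ratio of 1.12 to the control mean. With each gene counted once per barcode *Krt14* and *Dst* were above both, while *Krt5* was not, at 1.25, nor *Krt15*, at 0.30. That count is capped for *Krt15*, which was found in 61.2%, 67.1% and 98.1% of the members. *Krt14* had 37.9, 23.5 and 153 CPM in the members, all within the limit of the rule, and 1132, 803 and 2103 CPM in the others. In the other barcodes *Krt5*, *Krt15* and *Dst* were above both controls and *Krt14* was not, and 30.1%, 25.4% and 59.5% of them had a count of *Krt14* at 1000 counts. Among the members, 88 of 103, 116 of 143 and 28 of 52 had no count of *Krt14*. A share of these counts that came from free RNA cannot be told apart from low expression. *Dst*, which encodes the linker dystonin, had 143, 35.1 and 199 CPM, with the controls further apart than control 1 was from the library labelled *Vdr* cKO.

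The genes furthest above both controls were *Cd74*, *Krt79*, *Atf3*, *Jun*, *Hes1*, *Id1*, *Arhgef26*, *Ddx39*, *Junb*, *Rin2*, *Abhd14b* and *Tmem208*. With each gene counted once per barcode, *Cd74*, *Arhgef26*, *Junb* and *Rin2* were no longer over 2-fold above both controls. Their log2 ratios to the control mean were then 0.96, 0.55, 0.36 and 0.72. The same held for *Hes1*, as given below. *Cd74*, the invariant chain of antigen presentation, had 1.48, 1.98 and 185 CPM, and 86.4% of its counts in the library labelled *Vdr* cKO were in 1 member. *Krt79*, a keratin gene of the upper follicle, had 8.26, 9.07 and 167 CPM in the members and 375, 337 and 796 CPM in the others. *Hes1*, a target of Notch signalling, had 65.4 CPM (58.3 to 73.2), 65.6 CPM (59.7 to 71.8) and 476 CPM (441 to 512). It was found in 2.91%, 4.23% and 26.9% of members at 1000 counts and in 3.37%, 3.02% and 12.4% of the others. *Hes1* was thus alike in the controls and higher in the library labelled *Vdr* cKO, in members and others, but with each gene counted once per barcode it was no longer over 2-fold above both controls, at a log2 ratio of 1.05. *Id1*, which encodes an inhibitor of basic helix-loop-helix factors, had 10.8, 38.5 and 251 CPM.

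The genes furthest below both controls were *Ercc5*, *Mpdu1*, *Ddx3y*, *Eml4*, *Iars2*, *Serpina12*, *Smarce1*, *Fam83h*, *Kctd15*, *Rcor1*, *Lars* and *Derl2*. With each gene counted once per barcode *Serpina12*, *Kctd15*, *Rcor1*, *Lars* and *Derl2* were no longer over 2-fold below both, at log2 ratios of -0.96, -1.03, -0.74, -0.96 and -0.70 to the control mean. *Ercc5*, which encodes a nuclease of DNA repair, had 107, 89.1 and 2.66 CPM, and *Mpdu1*, which acts in protein glycosylation, 65.9, 97.2 and 1.33 CPM. The intervals in the library labelled *Vdr* cKO were 0.724 to 6.80 CPM and 0.161 to 4.80 CPM. Both were thus nearly absent from the 52 members, with a count in 3 and 2 of them. In the other kept barcodes the same genes did not differ in this way, at 62.6, 28.8 and 42.3 CPM for *Ercc5* and 69.8, 48.7 and 71.1 CPM for *Mpdu1*. The Y-linked gene *Ddx3y* had 143, 105 and 9.30 CPM in the members and 85.8, 96.9 and 41.7 CPM in the others, in the library that also held *Xist*. *Serpina12* was below both controls among the members, at the levels given above, and *Dsg1b* was the 1 desmosome gene of 11 below both, at 353, 210 and 46.5 CPM. *Dsg1b* was also below both in the other barcodes, at a log2 ratio of -1.99 to the control mean. With the mean of single-barcode CPM it was not below both among the members, at -0.88 against -2.37 in the pool.

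Apart from *Krt10*, none of 9 spinous genes was over 2-fold above or below both controls, where 4.16% and 4.38% of all measured genes were. Their median log2 ratio was -0.48 in the members and -0.50 in the others, and that of all measured genes was 0.00 in the members. *Krt77* was 0.18 below the control mean on the log2 scale, *Krt1* 0.48 below it and *Dsg1a* 0.98 below it, and *Krt10* differed by -0.01, which the rule constrains. The 75 ribosomal protein genes, of which 74 were measured and none was over 2-fold from both controls, summed to 52032, 65216 and 68882 CPM, so that the controls differed more from each other than control 2 from the library labelled *Vdr* cKO. Of 11 heat shock genes, 1 was above both controls, *Dnajb1*, at 135, 119 and 295 CPM. Neither of the 2 vitamin D pathway genes measured was over 2-fold from both controls.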

How the data were processed

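The authors deposited 1 matrix of counts per gene and barcode for each library, made from droplet libraries of dorsal skin, and the submitters' processing notes name the build mm10. The study's methods name Seurat for the alignment of the datasets. The read aligner, the annotation and the handling of PCR copies are not given in the sources used here, and whether the counts are of reads or molecules is therefore unknown. No column of an unknown sample was present (0). Pooled counts of members, of the other kept barcodes and of barcodes missing 1 limit were expressed as CPM, and ratios were taken after adding 10 CPM. Intervals are 95% exact Poisson or Clopper-Pearson. Members against others used genes of at least 20 CPM on average and at least 20 kept barcodes in each library, and comparisons within members used genes of at least 50 CPM and at least 10 members. A gene was called when over 2-fold in all 3 libraries, or against both controls. Doublets were not called or removed, and replicates were neither paired nor pooled.

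The members and gene lists were chosen with earlier results of these data known, so no test was made. Named genes were the rule genes, the given markers, *Vdr*, *Gata3* and *Dst*, the 12 highest and lowest genes of each comparison, and the most abundant genes of each list. Further genes of the lists were named too, such as *Alas2*, *Slc4a1* and genes that were called. *Xist*, *Eif2s3y*, *Flg2*, *Scel*, *Cnfn*, *Asprv1*, *Fasn*, *Prdm1*, *Dnajb1*, *Dsg1b*, *Pkp2*, *Dsc1* and *Adam10* were named after their values were seen. Of 19927 symbols, 97.6% were in GENCODE M21, which gave gene positions on GRCm38. The pooling code was tested on simulated data. Alternatives changed the limits, filters, depth, pooling and scaling. Python 3.11.15, numpy 2.4.6, scipy 1.17.1, pandas 2.3.3, matplotlib 3.10.9 and R 4.3.3 were used, with edgeR 4.0.16 and DESeq2 1.42.0 for scaling factors only.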

Additional observations from a re-analysis of the deposited data

Results flagged for a closer look

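*Arhgef26*, which encodes a guanine nucleotide exchange factor, differed in direction between the libraries. Its pooled level was 13.1, 40.8 and 229 CPM in the members, in the order control 1, control 2, library labelled *Vdr* cKO, and 55.7, 106 and 56.2 CPM in the other kept barcodes. The log2 ratio of members to the others was thus -1.51 and -1.19 in the controls and 1.85 under the cKO label. The difference was not tested. It was detected in 11, 17 and 11 members, and the barcode with the most counts held 27.4%, 21.5% and 34.6% of them. With each gene counted once per barcode, the log2 ratio of the library labelled *Vdr* cKO to the control mean within the members was 0.55, and the gene was no longer over 2-fold above both controls.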

How the results depend on the processing

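With 1 library of *Vdr* cKO mice and pooled animals, no spread between mice is known, and genes with few counts in the 52 members of that library are the least certain. No paired analysis of control against *Vdr* cKO libraries was possible because these groups share fewer than 2 replicate numbers. Members and other barcodes were compared within each library. Of the values that answer a comparison, 128 stayed within a tolerance, 60 moved past it and 4 reversed, and of those of single genes 569, 223 and 3. The tolerance was 1.5 times for counts of genes, the interval for the member share under the cKO label and otherwise the SD of the controls. A reversal was counted only where the value was called or over 2-fold, and 22 of the 795 single-gene values changed sign in all. Values below are in the order control 1, control 2, library labelled *Vdr* cKO, and the cause of each change was not tested.

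The member share was 8.36% and 10.1% in the controls with a minimum of 300 genes, and 10.7% in control 2 with at least 2000 counts. It was 10.5%, 13.8% and 3.28% at a *Krt10* limit of 30000 CPM and 3.85%, 4.22% and 1.03% at 50000 CPM. It was 5.47% and 7.24% in the controls at a *Lor* limit of 1500 CPM and 9.73% and 10.9% at 6000 CPM. Among barcodes of at least 8000 counts, chosen after seeing the data, it was 24.3%, 20.1% and 5.35%. In each of these settings with 3 values the library labelled *Vdr* cKO was lowest.

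The single higher gene in members became 0 at 30000 CPM and 4 at 50000 CPM of *Krt10*, 2 at either *Lor* limit, 4 and 2 at *Krt14* limits of 250 and 1000 CPM, 2 without shared barcodes and 2 without rule and mitochondrial genes in the total. It became 9 with the mean of barcode CPM, 7 with 1 CPM added, 63 at 1.5-fold, 0 at 3-fold, 47 against the *Lor*-positive barcodes and 11 to 36 with a library left out. The 178 lower genes became 109 at a minimum of 50 CPM, 354 at 1.5-fold, 85 at 3-fold, 47 against the *Lor*-positive barcodes and 265 to 313 with a library left out.

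Within the members, the 133 genes above both controls became 88 and 259 at *Krt10* limits of 30000 and 50000 CPM, 304 with the mean of barcode CPM, 504 without a level filter, 49 at a minimum of 100 CPM, 361 at 1.5-fold, 27 at 3-fold and 312 to 333 with 1 control left out. The 140 below became 74 and 297 at the *Krt10* limits, 446 without a filter, 59 at 100 CPM, 368 at 1.5-fold, 43 at 3-fold and 254 to 328 with 1 control left out. Scaling by edgeR's TMM moved the median of all genes by -0.03 and gave 125 above and 149 below, and DESeq2's median of ratios gave 130 and 144.

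The globin log2 ratio of control 2 reversed to -3.0 at a *Krt10* limit of 50000 CPM, to -0.35 without the 2 globin-rich barcodes and to -0.07 with each gene counted once per barcode, and that of control 1 to 0.10 at 8000 counts or more. The ratio of detected genes was 1.35, 1.38 and 1.21 when thinned to 500 counts, 1.58 in control 1 at 2000 counts and 1.43 in control 2 with a minimum of 300 genes. With the mean of barcode CPM, the log2 ratio of members to the others was -0.76 for *Plpp1* and -0.37 for *Rpp25l* in control 1 and 0.29 for *Vdr* in control 2. Leaving out the deepest member of each library and the 2 globin-rich members were also chosen after seeing the data.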

Other observations

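Of 17 barrier lipid genes measured, none was over 2-fold from the other kept barcodes in all 3 libraries, at median log2 ratios of -0.33, -0.47 and -0.18 in the order control 1, control 2, library labelled *Vdr* cKO. *Elovl4*, which elongates very long fatty acids, was the most abundant, with 1996, 1797 and 1954 CPM in the members and 6050, 3754 and 1611 CPM in the others. The members were lower in the controls and not in the library labelled *Vdr* cKO. Of 15 junction genes, none was over 2-fold apart in all 3 libraries, and *Gjb5*, a connexin gene and the most abundant, had 547, 645 and 693 CPM against 390, 398 and 327 CPM.

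Of 16 proteases and inhibitors, *Serpina12* and *Ctsl* were over 2-fold lower in the members of all 3 libraries, where 3.09% of all measured genes were. *Spink5*, which encodes the inhibitor LEKTI of epidermal kallikreins and was the most abundant of the list, had 10950, 9901 and 7647 CPM in the members and 8020, 9421 and 4977 CPM in the others. Of 6 genes of the EGF receptor pathway, 1 was over 2-fold lower, against 3.09% of all measured genes. It was *Btc*, which encodes the ligand betacellulin. It had 17.4, 10.1 and 21.9 CPM in the members and 396, 389 and 399 CPM in the others, and was named after its values were seen.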
